A study of Mus musculus with 2 samples.

Results

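DNA replication and S-phase entry genes were examined in mammary tumors of mice fed a control diet or a diet with GW9662, an irreversible inhibitor of PPARγ. They were the probe sets annotated to a single gene, under its current or older symbol, among 51 listed genes of origin licensing and firing, the replication fork, nucleotide supply and the entry into S phase. Of the 51 genes, 49 had such a probe set, out of 12393 genes on the array, and Gins2 and Chaf1a were not analysed here. The rule used no measured value. The animals were female wild-type FVB mice, 5 weeks old when treatment began. All were injected with 15 mg of medroxyprogesterone acetate, a long-acting progestin, and then given 4 weekly doses of 1 mg of the carcinogen DMBA by gavage. Control mice stayed on standard chow. Treated mice were placed on chow with 0.1% GW9662 the day after the last DMBA dose. Age at tumor collection was not given in the sources used here. For each diet, RNA pooled from 5 mice was read on 1 Affymetrix mouse expression array, so there were 2 arrays in all and no replicate.

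In late mitosis and G1, the origin recognition complex marks origins of replication, and Cdc6 and Cdt1 load rings of the MCM helicase onto the DNA there. At the start of S phase, the Cdc7 kinase with its activator Dbf4, together with cyclin-dependent kinase, brings Cdc45 and the GINS complex to the rings and the helicases begin to unwind DNA. Polymerases then copy the strands behind them, held in place by the PCNA clamp, while ribonucleotide reductase and its partners supply deoxynucleotides. Many of these genes are switched on by E2F transcription factors, and in mammary tumors their transcripts mark the cycling cells.

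Each probe set, a group of short oligonucleotides that reads part of a transcript, had 1 linear signal on each array, with signals from 0 to 14841.4 and a trimmed mean of 500.2 on both arrays. Each gene was represented by whichever of its probe sets had the top mean of both signals, called its brightest, and was measured when that mean was at least 100. A gene was counted by size when the signal reached 300 on either array. Signals below 100 were set to 100 for a fold. Within 2639 genes read more than once, log2 ratios of GW9662 over control had a pooled SD of 0.36 between probe sets, a spread that holds no variation between mice. Without replicates the diets were compared by size alone, and the number of arrays limits the precision of every value.

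The replication genes had slightly higher signals in tumors from GW9662-treated animals. Of 47 measured genes, 38 gave more signal in the GW9662 pool and 9 gave less, against 52.9% of all 8009 measured genes with a higher signal. The median log2 ratio was 0.26, or 1.20-fold, against 0.03 over all measured genes, and the middle of the list ran from 0.09 to 0.52 between its quartiles. The largest difference was that of Cdc7, the origin firing kinase, whose signal was 204.6 (control) and 701.8 (GW9662), or 3.43-fold higher. Of 36 members with a signal of 300 on either array, 9 were at least 1.5-fold higher, against 6.39% of the 6053 genes past the same minimum. They were Cdc7, Dut, Fen1, Gmnn, Mcm7, Orc6, Prim2, Rpa3 and Rrm2. None of the 36 was at least 1.5-fold lower, against 9.8% of all genes. At 2-fold and at 3-fold, Cdc7 alone passed, against 1.02% and 0.215% of all genes in that direction, and no member was lower by as much, against 4.68% and 2.68%. The log2 ratio exceeded 0.36, the SD between probe sets, in 19 of the 47 genes, or 40.4%, against 18.2% of all measured genes, and lay below -0.36 in 0, against 18.4%.

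**Figure D1:**
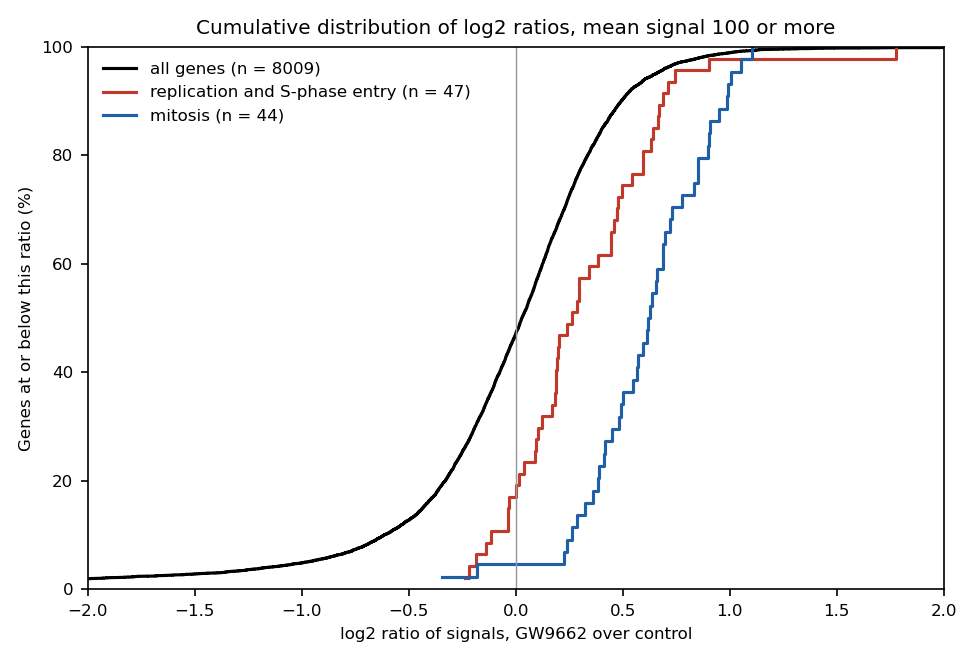
Cumulative share of genes (y axis, percent) at or below each log2 ratio of GW9662 over control (x axis, log2) for 8009 measured genes (black), 47 replication and S-phase entry genes (red) and 44 mitosis genes (blue). The x axis stops at -2 and 2. The red curve lies to the right of the black one, with a median of 0.26 against 0.03, and the blue curve lies farther right with a median of 0.62.

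The type of probe set moved with this difference. On Affymetrix arrays, a plain _at probe set is designed to read 1 transcript, _a_at reads several transcripts of 1 gene, _s_at holds probes shared by several transcripts and _x_at holds probes that may also bind unrelated ones. Taking the 72 member probe sets whose mean signal reached 100, the median log2 ratio was 0.08 at 43 plain probe sets, 0.44 at 17 _a_at, 0.46 at 5 _s_at and 0.60 at 7 _x_at probe sets. Over all genes these medians were -0.03, 0.00, 0.09 and 0.14. Of 364 genes read by both a plain and an _x_at probe set, 78.0% had the higher log2 ratio at _x_at, with a median difference of 0.26. In the 5 members among them the _x_at log2 ratio was higher in all 5, by a median of 0.56. Read at plain probe sets alone, 26 of 38 members had a higher signal, against 49.6% of genes, and their median was 0.10 against -0.0037. The count at 1.5-fold was then 3 (Gmnn, Orc6 and Rpa3) of 28 members past the signal minimum, against 5.86% of genes. The part of the probe set type in the result was not tested.

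Signals of fat and muscle markers also differed between the arrays. All 14 measured adipocyte markers were lower on the GW9662 array, where their summed signal was 9060.1 against 69521.1 on the control array, and so were all 14 measured skeletal muscle markers, with 1637.2 against 13618.4. None of these markers was at 0. The 14 measured markers of luminal epithelium, the cells that line the ducts, summed to 57259.6 (control) and 59296.8 (GW9662), with a median log2 ratio of 0.16, 9 of them higher and 5 lower. In these pools, fewer cells of a type and less RNA per cell cannot be told apart. When the arrays were centred on the luminal markers, the members' median was 0.10 and that of all genes -0.13, 32 of 47 members were higher against 36.4% of all genes, and Cdc7 and Dut, 2 of 36 members, were at least 1.5-fold higher against 2.85%. The members' median lay 0.23 above that of all genes with and without this centring. Centring shifts every log2 ratio by the same amount, so it could not alter that gap except through genes crossing the signal minimum. The part of the fat and muscle signals in the result was not tested.

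**Figure D2:**
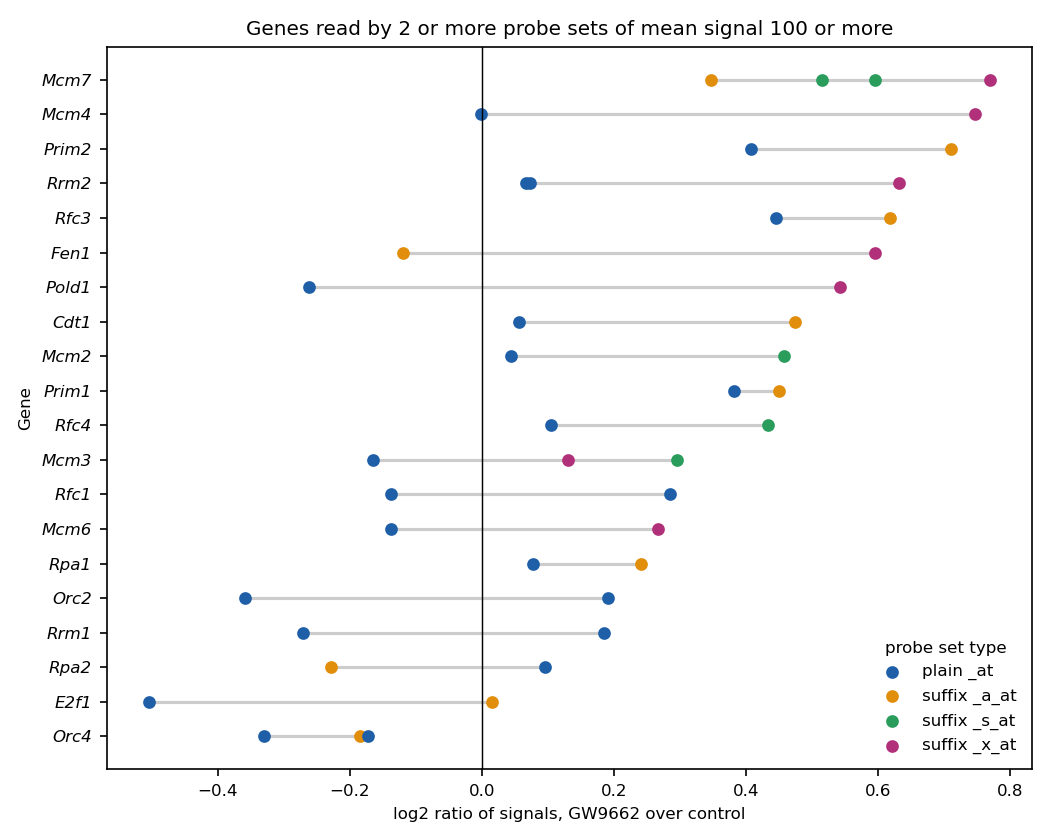
Log2 ratio of GW9662 over control (x axis) at each probe set of the 20 members (y axis) read by 2 or more probe sets whose mean signal reached 100, coloured by probe set type, with a gray line between the lowest and the highest. In 10 members the probe sets lie on both sides of 0, and the _x_at probe sets of Mcm7, Mcm4, Rrm2, Fen1, Pold1 and Mcm6 lie to the right of the other probe sets of those genes.

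Promoters of the replication genes often held E2F words, the letters TTTCGCGC, TTTGGCGC, TTTCCCGC and TTTGCCGC on either strand, which can overlap each other. RefSeq windows of 250 bases before and 50 bases after the start site (mouse build GRCm38.p6) were at hand for 43 of the 51 genes. An E2F word stood in a window of 13 of the 43, or 30.2%, against 2.6% of 27025 genes in the promoter table and 5.08% of the 6498 measured genes with a window. Before counting, the windows of a single chromosome had been left out for all genes. CCAAT, the word read by NF-Y, was present in 58.1% of members, 41.1% of all genes and 43.0% of the measured ones. TTTGAA, known from promoters of mitotic genes, was present in 6 of 43 members, against 20.2% of all genes and 14.2% of the measured ones, while 69.0% of 42 mitosis genes held it and 7.14% of them held an E2F word. The 12 measured members with an E2F word had a median log2 ratio of 0.25, from -0.14 to 0.60, and the 28 without one had a median of 0.22, from -0.24 to 1.78. A match is a description of letters, not of a bound site.

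Windows are shown for Cdc6, which loads the helicase, for Mcm3 and Mcm7 of the ring, and for Cdc7, the member with the largest difference, whose windows held no E2F word. They run 5′ to 3′ on the strand of the gene, and capitals mark the E2F words. The Cdc6 window is chr11:98907901-98908200 on the plus strand, with a word that starts 138 bases before the start site. The Mcm3 window is chr1:20820263-20820562 on the minus strand, with words 19 and 38 bases after it. Mcm7 and Cdc7 have 2 windows each in the table. The Mcm7 window shown is chr5:138171834-138172133 on the minus strand, with a word 165 bases before the start site and another 16 bases after it, and its other window held 0 words. The Cdc7 window shown is chr5:106964072-106964371 on the plus strand.
Cdc6: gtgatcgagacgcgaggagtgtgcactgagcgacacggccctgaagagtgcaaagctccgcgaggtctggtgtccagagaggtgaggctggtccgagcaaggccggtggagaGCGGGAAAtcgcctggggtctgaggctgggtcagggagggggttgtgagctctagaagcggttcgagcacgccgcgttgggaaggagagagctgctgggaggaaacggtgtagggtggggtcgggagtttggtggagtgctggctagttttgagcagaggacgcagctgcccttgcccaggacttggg
Mcm3: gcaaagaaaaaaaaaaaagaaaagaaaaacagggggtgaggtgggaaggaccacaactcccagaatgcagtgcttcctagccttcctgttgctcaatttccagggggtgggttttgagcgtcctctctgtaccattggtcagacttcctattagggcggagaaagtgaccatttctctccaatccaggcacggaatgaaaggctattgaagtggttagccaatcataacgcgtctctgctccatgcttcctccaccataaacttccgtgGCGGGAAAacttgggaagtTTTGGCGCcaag
Mcm7: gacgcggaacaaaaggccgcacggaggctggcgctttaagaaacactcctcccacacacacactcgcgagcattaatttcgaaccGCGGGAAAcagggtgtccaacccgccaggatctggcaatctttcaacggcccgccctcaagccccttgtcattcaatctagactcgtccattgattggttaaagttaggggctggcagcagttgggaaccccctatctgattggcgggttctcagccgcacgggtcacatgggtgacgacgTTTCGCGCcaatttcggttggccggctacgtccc
Cdc7: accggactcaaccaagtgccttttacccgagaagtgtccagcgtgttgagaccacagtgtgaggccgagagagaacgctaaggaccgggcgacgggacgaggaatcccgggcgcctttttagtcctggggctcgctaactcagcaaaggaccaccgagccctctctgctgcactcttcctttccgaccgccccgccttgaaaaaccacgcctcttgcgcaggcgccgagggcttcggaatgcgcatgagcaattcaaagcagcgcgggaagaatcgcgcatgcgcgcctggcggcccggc

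Origin recognition and licensing genes had a median log2 ratio of 0.44 over 7 measured members. Of these 7, 6 were higher, against 52.9% of all measured genes. Orc6, the smallest subunit of the recognition complex, gave 371.1 (control) and 589.6 (GW9662), 1.59-fold higher at its only probe set. Gmnn encodes geminin, which holds Cdt1 back once S phase has begun, and had 917.7 and 1455.6, also 1.59-fold higher at its only probe set. Cdt1 itself had 1017.6 and 1413.5 (1.39-fold) at its brightest probe set, whereas its plain probe set was nearly level (331.1 and 344.1). Cdc6, the ATPase that recruits the helicase, had 136.6 and 185.9. Differences were smaller for the remaining recognition subunits, and the probe sets of Orc2 went both ways. Orc5 had 341.9 and 364.3. Orc2 had 245.1 and 279.8 at its brightest probe set but 159.1 and 124.1 at another. Orc4 was lower on the GW9662 array at all 3 of its probe sets (640.8 and 563.7 at the brightest, 272.7 and 241.9, and 148.8 and 118.4). The signals of Orc1, the ATPase subunit, were below 100 on both arrays (54.7 and 78.4), so no fold was read.

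The MCM2 to MCM7 proteins form the ring that unwinds DNA at the fork, and the median log2 ratio of its 6 genes was 0.17. Of the 6, 4 were higher and 2 lower, against 52.9% of all measured genes higher. Mcm7 was higher at all 4 of its probe sets, none of them plain. The brightest had 2296.1 (control) and 3470.0 (GW9662), 1.51-fold higher, and the others had 931.2 and 1184.7, 733.9 and 1049.1, and 548.7 and 935.5. The other ring genes read differently by probe set. Mcm4 had 1209.2 and 1208.2 at its plain probe set and 838.3 and 1407.3 at an _x_at probe set. Mcm6 was lower at its plain probe set (1376.8 and 1251.9) and higher at an _x_at probe set (835.5 and 1005.7). Mcm2 had 507.9 and 523.6 at the plain probe set and 462.0 and 634.8 at an _s_at probe set, the one with the higher mean. A like split was seen for Mcm3, whose plain probe set had 323.2 and 288.3, against 796.7 and 978.3 at an _s_at and 281.1 and 307.8 at an _x_at probe set. Mcm5 was read by 1 plain probe set and was nearly level (426.4 and 438.0). At plain probe sets the ring genes Mcm2, Mcm4 and Mcm5 differed by less than the SD between probe sets, as did Mcm3 and Mcm6, which were lower there.

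The genes that fire licensed origins held the largest single difference. Cdc7 had signals of 204.6 and 701.8 at its _a_at probe set, and its other probe set, also _a_at, was below 100 on both arrays (29.7 and 54.7), so 1 probe set on 1 array per diet carries the 3.43-fold value. Dbf4, the subunit that activates the Cdc7 kinase, had 514.6 and 652.1 at its brightest probe set, 1.27-fold higher. Its other probe set was listed at 0.6 and 13.6. Gins1, a subunit of the GINS complex, was higher (422.0 and 594.5, 1.41-fold), and so was Mcm10, which activates the assembled helicase (132.3 and 213.2, 1.61-fold), although its signal did not reach 300. Cdc45, the helicase cofactor, was near the minimum on both arrays (122.6 and 105.5). The median log2 ratio of the 5 measured genes was 0.49.

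**Figure D3:**
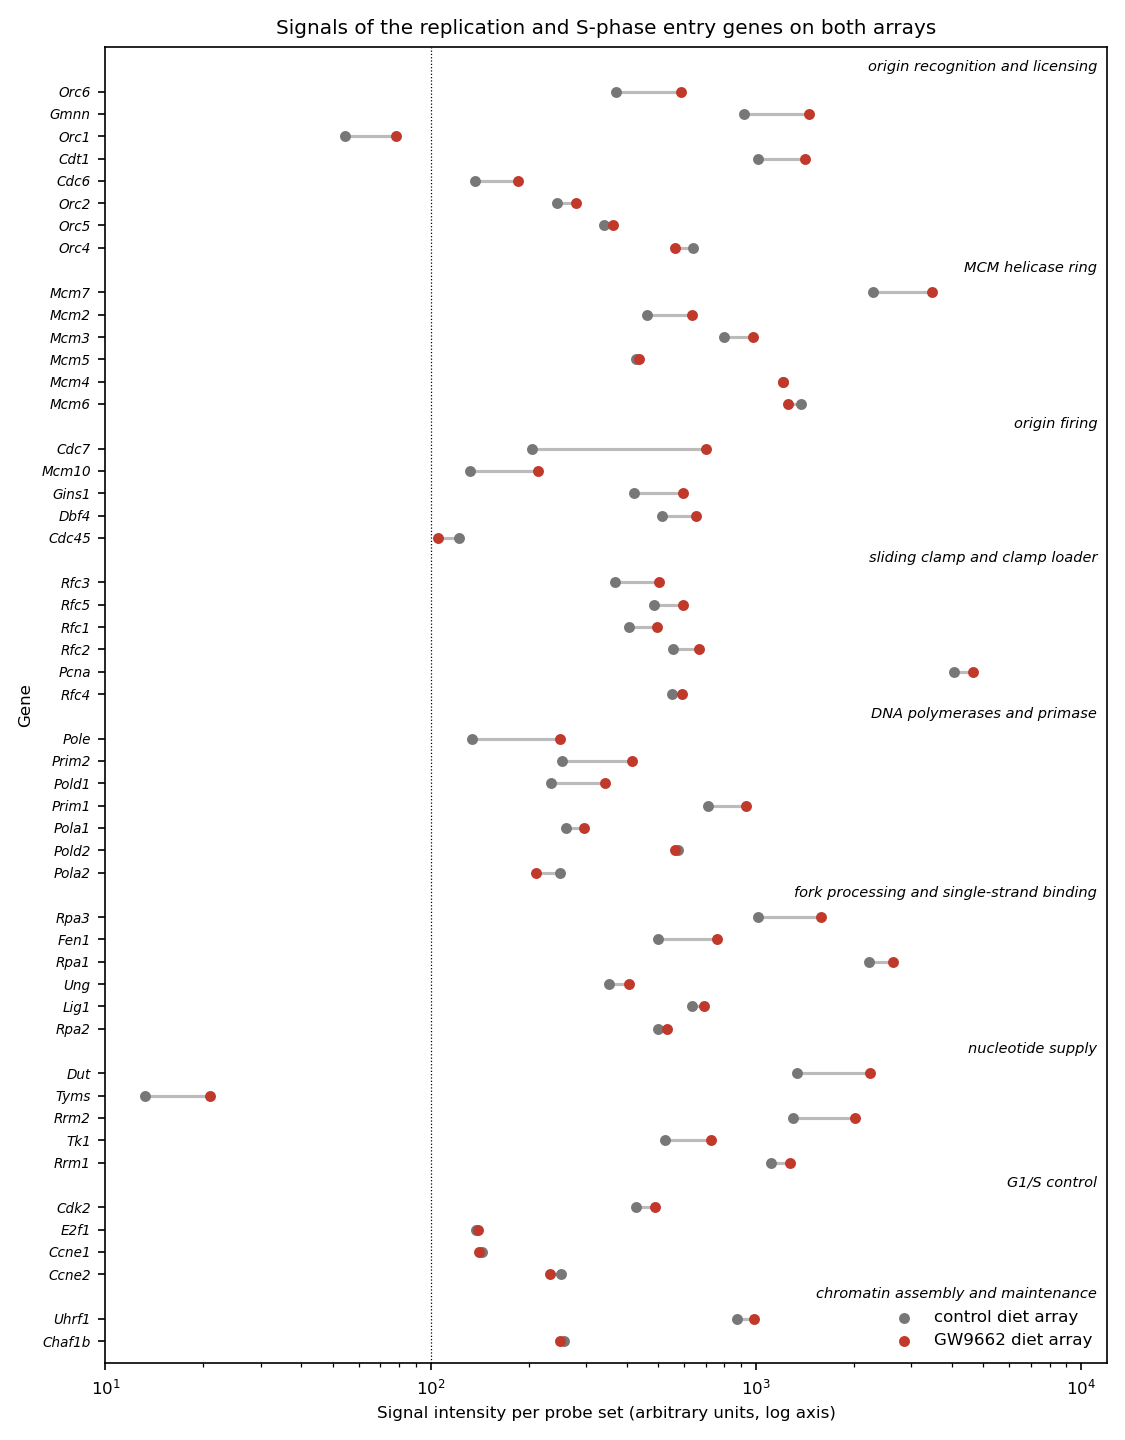
Signal of the 49 genes (y axis, grouped by role) at its brightest probe set, on a log x axis in arbitrary units, with the control diet array in gray, the GW9662 diet array in red and a gray line between them; the dotted line marks a signal of 100. The longest line among genes above 100 is that of Cdc7 (204.6 and 701.8), and the 6 clamp and clamp loader genes all have the red point to the right.

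All 6 genes of the sliding clamp and its loader were higher in the GW9662 pool at their brightest probe sets, by small amounts. Their median log2 ratio was 0.27, and 52.9% of all measured genes were higher. Pcna, the ring that tethers polymerases to DNA, had 4068.9 (control) and 4633.3 (GW9662), 1.14-fold higher at its only probe set. Among the subunits of replication factor C, which opens the clamp, Rfc3 was higher at both probe sets (369.2 and 502.9, and 298.9 and 458.9). Rfc4 was also higher at both, by less at the brighter one (550.0 and 591.6, and 386.0 and 521.3). Rfc2 and Rfc5 were each read once, at 557.0 and 668.0 and at 486.1 and 596.1. Rfc1, the large subunit, was higher at 1 plain probe set (408.0 and 496.9) and lower at another (419.9 and 381.6), while a dimmer _a_at probe set was below 100 on both arrays (83.0 and 34.6).

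Among polymerase and primase genes, 5 of 7 were higher, against 52.9% of all measured genes. The median log2 ratio of the 7 was 0.38. Both primase genes, whose products lay down the RNA primers, were higher at both of their probe sets. Prim2, the large subunit, had 253.4 (control) and 414.8 (GW9662) at its brightest, 1.64-fold higher, and 258.2 and 342.7 at the other. Prim1, the catalytic subunit, had 712.8 and 928.9 at its brightest and 550.0 and 751.2 at the other. The polymerase genes were less uniform. Pole, the catalytic subunit of the leading strand polymerase, was 1.87-fold higher at its only probe set (133.6 and 249.7) but did not reach 300. Pold1, the catalytic subunit of polymerase delta, went opposite ways, with 235.1 and 342.5 at an _x_at probe set and 209.7 and 174.8 at a plain one, 0.81 apart on the log2 scale and the widest split among the members. Its accessory subunit Pold2 was nearly level (576.6 and 562.6). Of the polymerase alpha genes, which extend the primers, Pola1 had 260.7 and 295.5 and Pola2 had 249.2 and 211.2, the lowest log2 ratio among the measured members at -0.24.

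Genes of Okazaki fragment processing and single-strand binding were all higher at their brightest probe sets (6 of 6), against 52.9% of all measured genes. The median log2 ratio of the 6 was 0.22. Rpa3, the small subunit of the single-strand binding complex RPA, had 1014.5 (control) and 1582.7 (GW9662), 1.56-fold higher at its only probe set, a plain one. The other RPA genes differed by less. Rpa1 had 2229.2 and 2635.3 at the brighter of its probe sets, with 1064.9 and 1123.9 at the other, and Rpa2 had 500.3 and 534.5 at the brighter and 214.6 and 183.2 at the other. For Fen1, the nuclease that trims flaps from Okazaki fragments, the direction depended on the probe set, with 501.4 and 758.0 (1.51-fold higher) at an _x_at probe set and 441.6 and 406.4 at an _a_at probe set. Lig1, the ligase that seals these fragments, had 635.9 and 692.9. Ung, which removes uracil from DNA, had 353.6 and 406.3.

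The 4 measured genes of nucleotide supply were all higher at their brightest probe sets, against 52.9% of all measured genes. The median log2 ratio of the 4 was 0.55. Dut, the dUTPase that keeps uracil out of DNA, had 1340.0 (control) and 2244.5 (GW9662), 1.67-fold higher at an _a_at probe set, and its other probe set was below 100 on both arrays (57.3 and 51.6). Rrm2, the regulated subunit of ribonucleotide reductase, was 1.55-fold higher at an _x_at probe set (1301.1 and 2016.0) and 1.05-fold higher at each of its plain probe sets (858.4 and 899.3, and 335.8 and 353.2). Rrm1, the large subunit, had 1115.6 and 1268.8 at the brighter plain probe set and 221.8 and 183.8 at the dimmer. Tk1, the salvage enzyme thymidine kinase, had 524.2 and 729.0, 1.39-fold higher. Tyms, the thymidylate synthase gene, had no single-gene probe set above 20.9 on either array, so no level was read. The median of the role was 0.27 with the median over probe sets of each gene, and 0.19 over 3 genes at plain probe sets alone.

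The regulators that open S phase were nearly level. The median log2 ratio of the 4 G1/S genes was -0.01, and all 4 differed by less than the SD between probe sets at their brightest probe sets. Ccne1 and Ccne2 encode the E-type cyclins, with 144.1 and 140.9 for Ccne1 and 252.4 and 232.8 for Ccne2 on the control and GW9662 arrays. Cdk2, the kinase they activate, had 428.3 and 490.3. E2f1, the activating E2F factor, was level at an _a_at probe set (138.3 and 139.8) and lower at a plain one (153.4 and 108.1). Of the genes that restore chromatin behind the fork, Uhrf1, which guides maintenance methylation, had 877.1 and 986.9 at its brightest probe set. A dimmer Uhrf1 probe set went the other way (129.9 and 60.8), at least 1.30-fold lower. Chaf1b, a subunit of the histone chaperone CAF-1, had 257.0 and 250.2.

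Probe sets of the same gene often differed in direction. Of the 20 members read by at least 2 measured probe sets, 9 were higher at all of them, 1 (Orc4) was lower at all, and 10 had probe sets on both sides of 0. In 5 of these 10, namely E2f1, Fen1, Mcm4, Orc2 and Pold1, the probe sets lay at least 0.5 apart on the log2 scale. Within members, the pooled SD between probe sets was 0.30, against 0.36 within all 2639 genes read more than once. How often probe sets differed in direction over all genes was not counted. With the median over probe sets in place of the brightest, the members' median log2 ratio was 0.20, and Cdc7, Dut, Gmnn, Orc6 and Rpa3 were at least 1.5-fold higher, 5 of 36 members against 5.37% of genes.

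Other genes of DNA replication were higher to a like degree at their brightest probe sets, but not at plain probe sets alone. Their list was written from general knowledge, with earlier results of these data known. Of 30 measured factors, 23 gave more signal in the GW9662 pool and 7 gave less, against 52.9% of all measured genes higher. Their median log2 ratio was 0.31. At plain probe sets alone it was 0.30 over 26 of these factors, against 0.10 over 38 members. Of 23 with a signal of 300 on either array, 5 were at least 1.5-fold higher, against 6.39% of all genes. In the other direction 0 were lower by as much, against 9.8%. Rnaseh2c, a subunit of the nuclease that removes ribonucleotides from DNA, had 990.1 (control) and 1890.4 (GW9662), 1.91-fold higher, and Dnmt1, the maintenance DNA methyltransferase, had 989.0 and 1646.5, both at _x_at probe sets. At the other end, Mcmbp, an MCM binding protein, had 730.3 and 581.0 and the recognition subunit Orc3 had 353.1 and 281.2. Other nucleotide synthesis genes were higher in 20 of 25, against 52.9% of all measured genes, with a median of 0.12. They ran from Dctpp1, a nucleotide pyrophosphatase (861.2 and 1472.4), and the thymidylate kinase gene Dtymk (1508.8 and 2202.4), to the ribose phosphate enzyme Prps1 (1089.4 and 855.7) and Dhodh of pyrimidine synthesis (382.0 and 231.0).

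Further regulators of the G1/S step were mixed, 16 of 27 higher and 11 lower, against 52.9% of all measured genes higher. Their median log2 ratio was 0.19. The cyclin-dependent kinase inhibitor Cdkn1c (p57) was 3.21-fold lower on the GW9662 array (422.1 and 131.4), and the inhibitor Cdkn2c (p18) was 2.07-fold lower (1203.2 and 582.3). Of the other inhibitors on the list, Cdkn2d had the lower signal in the GW9662 tumors (526.1 and 473.0) and the rest the higher. Cdkn2b had 421.7 and 525.4. Cdkn1b (p27) had 793.7 and 1257.5, Cdkn2a had 1030.0 and 1342.8, and the p53 target Cdkn1a (p21) had 1567.7 and 1690.5. The retinoblastoma gene Rb1 had 823.6 and 545.3, 1.51-fold lower. Skp2, which marks p27 for degradation, was 1.77-fold higher at an _a_at probe set (451.2 and 798.7), with a log2 ratio of -0.089 at its plain probe set, and Cks2, a binding partner of cyclin-dependent kinases, was higher (2605.6 and 4210.6). Ccnd1, the D-type cyclin that starts the G1 kinases, had 3942.5 and 4502.8, Ccna2, the S-phase cyclin, had 973.3 and 1128.7, and Myc had 993.7 and 845.2.

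**Figure D4:**
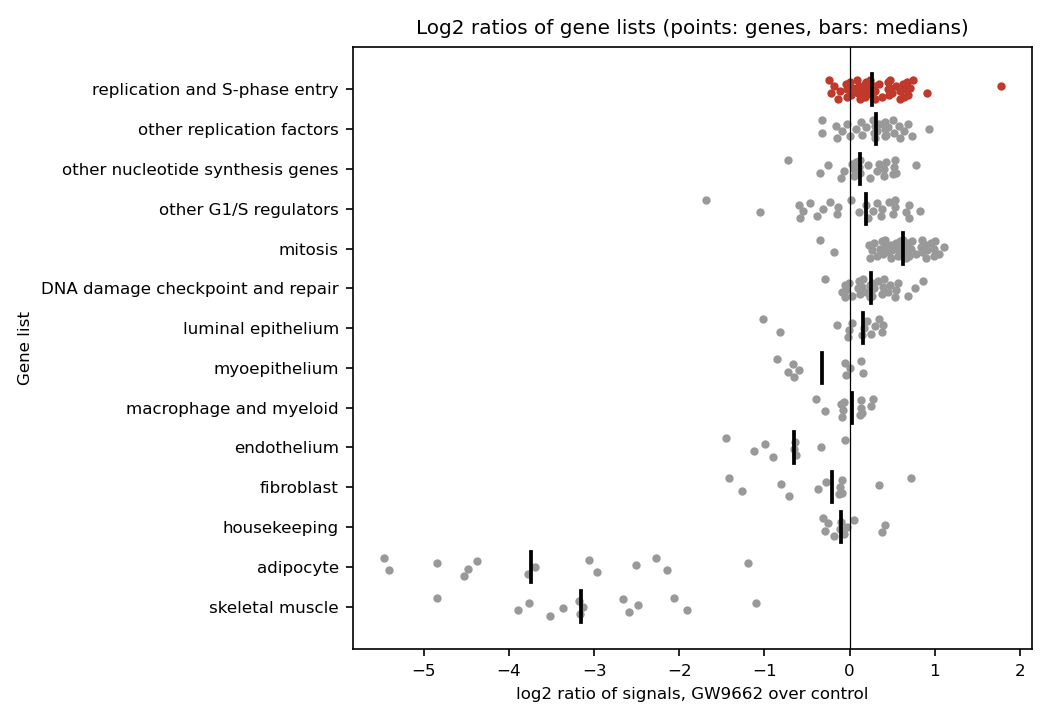
Log2 ratio of GW9662 over control (x axis) of the measured genes of each list (y axis), with 1 point per gene and a black bar at the median; vertical scatter within a list carries no value. Each gene is shown at its brightest probe set. There the replication and S-phase entry genes (red, median 0.26) lie near the other replication factors (0.31). The mitosis genes (0.62) lie higher and the adipocyte (-3.74) and skeletal muscle markers (-3.15) far lower.

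Mitosis genes, which act after replication is complete, differed more than the replication genes. Of 44 measured, 42 gave more signal in the GW9662 pool and 2 gave less, against 52.9% of all measured genes higher. Their median log2 ratio was 0.62. Of 34 past the signal minimum, 22 were at least 1.5-fold higher, against 9 of 36 replication genes and 6.39% of all genes. At plain probe sets alone the median of the mitosis genes was 0.52 over 28 genes, against 0.10 over 38 replication genes. Mki67, the proliferation antigen, had 795.6 and 1281.1, the mitotic kinase gene Cdk1 had 920.5 and 1825.5, and Top2a, which untangles replicated DNA, had 929.7 and 1534.4. Cenpa, the centromeric histone (803.0 and 1726.5), and Kif2c, a kinesin of the centromere (292.6 and 607.1), were at least 2-fold higher. The smallest differences among genes past 300 were those of Bub3 (2223.6 and 2596.4) and Plk1 (341.6 and 409.4). The difference between the lists could not be tested with 1 array per diet.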

How the data were processed

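Total RNA from tumors of 5 mice per diet was pooled, labelled with biotin and hybridized to 1 Affymetrix mouse expression array per diet, and raw data came from the GeneChip Operating Software of Affymetrix. Every probe set has a linear signal intensity for each array in the deposited table. How the authors computed and scaled it is not given in the sources used for this work. The 2% trimmed mean was 500.2 on both arrays, and the signals were used without further scaling. A signal of 0 was read as 0.1 on the log2 scale.

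Of 22690 probe sets, 64 were controls and 20380 had a single gene in the platform annotation, which is old. Older symbols were replaced through gene identifiers by those of RefSeq (GRCm38.p6). A total of 691 probe sets with several genes were not used. With 1 pooled array per diet there was no test, and lists were described by counts and medians beside all genes. The members and lists were chosen with earlier results of these data known. Named were all members and, of the pathway lists, the 2 largest log2 ratios in each direction among genes with a signal of at least 300, with fixed cell cycle genes, some of which are not reported here. Cell type lists were given as counts, sums and medians, with none of their genes named. The counting rule was tested on simulated data with noise set to the SD between probe sets, which holds no variation between mice. The calls checked there were those at 2-fold, not at 1.5-fold. Python 3.11.15, numpy 2.4.6, pandas 2.3.3, scipy 1.17.1 and matplotlib 3.10.9 were used.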

Additional observations from a re-analysis of the deposited data

Results flagged for a closer look

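A probe set annotated jointly to Tyms and the pseudogene Tyms-ps gave 620.2 (control) and 839.4 (GW9662), or 1.35-fold higher. It lies outside the single-gene probe sets and cannot be assigned to either gene.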

How the results depend on the processing

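No paired analysis was possible because each diet had 1 array, and none could be left out. The members' median log2 ratio kept its direction under every alternative run, from 0.10 (plain _at probe sets only, and centring on the luminal epithelium list) to 0.47 over 11 members with a signal minimum of 1000, and its excess over all genes ran from 0.10 to 0.38. The share of members with a higher signal ran from 68.1% (32 of 47, centred on the luminal list, against 36.4% of all genes) to 89.4% (centred on the housekeeping list, against 61.9%). The count at least 1.5-fold higher was 9 of 36 (6.39% of all genes), but 5 of 36 with the median over probe sets (5.37%), 5 of 11 with a signal minimum of 1000 (6.44%), 3 of 28 with plain probe sets only (5.86%) and 2 of 36 when centred on the luminal list (2.85%). At 2-fold and 3-fold the count of 1 became 0 with the minimum of 1000 and with plain probe sets only, which leave Cdc7 out. No member was at least 1.5-fold lower under any alternative run. The median of the nucleotide supply genes became 0.19 with plain probe sets only. Fen1 turned to -0.12 without _x_at and _s_at probe sets and at its dimmest probe set, and Skp2 to -0.089 with plain probe sets only. The adipocyte median was -3.05 with a floor of 100, -3.06 with a minimum of 1000, -4.38 with plain probe sets and -4.43 at the dimmest probe sets. The skeletal muscle median was -2.54 with the floor and -2.63 with plain probe sets. The lymphocyte median, over 1 gene with the minimum in place, was -0.81 with the median over probe sets, -0.88 without _x_at and _s_at, -0.70 at the dimmest and -0.57 with no minimum over 12 genes. The causes were not tested. The alternatives with plain, luminal and dimmest in their names were chosen after seeing the data. Genes with signals under 100 on both arrays gave no fold, which left Orc1 and Tyms without one.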

Other observations

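DNA damage checkpoint and repair genes were higher in 25 of 31, against 52.9% of all measured genes, with a median log2 ratio of 0.25. Chek1, the checkpoint kinase of stalled forks, had 195.2 (control) and 353.6 (GW9662) at an _s_at probe set, and Atr, the kinase that activates it, had 232.1 and 335.0. Rad1 (341.4 and 319.6), part of the checkpoint clamp, and Rad17 (668.5 and 644.4), which loads it, were slightly lower.

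Lists for other cells of the tumor were level or lower. Endothelial markers were lower in 9 of 9 (median log2 ratio -0.66), fibroblast markers in 10 of 12 (-0.20) and myoepithelial markers in 7 of 10 (-0.33), while 6 of 12 macrophage and myeloid markers were lower (0.03). Of 12 lymphocyte markers, 1 reached a mean signal of 100, with a log2 ratio of -0.09. The median of 11 housekeeping genes was -0.10.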
